A study of Homo sapiens with 8 samples.

Results

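The lamins and their partners at the inner nuclear membrane were examined through 9 of the 38148 genes in the expression table: the lamin genes LMNA, LMNB1 and LMNB2, the inner nuclear membrane proteins LBR, TMPO, EMD, SUN1 and SUN2, and BANF1. They were chosen by name, and all 9 passed the filter on low values. HT29 is an established human colorectal cancer cell line that carries an activating BRAF mutation, and selumetinib blocks MEK, which sits directly above ERK in the MAP kinase cascade. Cultures were left untreated or given 1 μM selumetinib for 24 h, and the cells underwent glyoxal fixation, antibody staining for cyclin B1 (CCNB1), a G2 protein, and sorting into a negative and a positive fraction. The study ran this sort in HT29 as a counterpart to the same experiment in COLO205, another colorectal cancer line with mutant BRAF. Poly(A) RNA was sequenced from 4 groups with 2 libraries each: the CCNB1-negative and the CCNB1-positive fraction of untreated cells, and the same fractions of cells given selumetinib, here called treated. All groups share the cell line, the fixation and the sort, and the labels do not say whether the libraries of a group came from separate cultures, although the study describes its COLO205 counterpart as biological replicates. The p-values measure the spread between these libraries, which may be technical.

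Lamins are intermediate filament proteins that form a meshwork beneath the inner nuclear membrane. LMNA encodes the A-type lamins A and C through alternative splicing, while LMNB1 and LMNB2 each encode a B-type lamin that stays attached to the membrane by a lipid anchor. A-type lamins are abundant in stiff or differentiated tissue, and loss of lamin B1 is widely used as a mark of senescent cells. Membrane proteins tie the meshwork to chromatin and to the cytoskeleton, and the whole assembly is taken apart and rebuilt at each mitosis.

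The values are log2 reads, each library scaled by the authors to the library with the most reads, so that a difference of 1 is a 2-fold change. Recovered reads on genes ranged from 12696860 to 23916160 per library, and every member had between 200 and 27860 reads in each library. The 8 sample titles disagree with the short descriptions on treatment as well as on fraction, each naming the reverse of the other. The descriptions were followed, since they are also the column names of the table. With them, the ERK target genes DUSP6 (log2 difference -1.75 in CCNB1-negative, -1.06 in CCNB1-positive cells), ETV4 (-3.10 and -2.34) and SPRY4 (-1.13 and -1.20) fell after the MEK inhibitor, and with the titles they would rise. The 2 treated CCNB1-positive libraries lay apart, at 9.21 and 9.89 for DUSP6, 7.82 and 9.19 for ETV4 and 8.19 and 8.85 for SPRY4. Each of these values was below both untreated CCNB1-positive libraries. Under the titles the response of either fraction would be that given here for the other fraction with its sign changed, and the fraction differences of untreated and treated cells would swap with reversed signs, while the interaction would not move. CCNB1 mRNA, whose protein was used for sorting, stood at 11.66 and 12.01 on the log2 scale in untreated CCNB1-negative, 13.79 and 14.05 in untreated CCNB1-positive, 7.92 and 7.22 in treated CCNB1-negative and 12.76 and 12.53 in treated CCNB1-positive libraries. All 7 epithelial markers were detected in every library, from 40 reads upwards for CDX2. Their summed level was 9930 to 11020 RPM in untreated, 4578 to 6514 in treated CCNB1-negative and 6143 to 8247 in treated CCNB1-positive libraries. In CCNB1-negative cells EPCAM (log2 difference -1.34), KRT8 (-1.22) and KRT18 (-1.11) fell, CDX2 (1.06) and VIL1 (0.73) rose, and CDH1 and KRT20 did not pass. In CCNB1-positive cells EPCAM fell (-0.83), CDX2 (1.14) and VIL1 (0.58) rose, and the other 4 did not pass. The 8 markers of other cell types summed to 7.40 to 18.9 RPM. CD3E, COL1A2, PDGFRB, PTPRC and VWF were at 0 in some libraries and at most 1, 1, 5, 11 and 23 reads, PECAM1 had 3 to 25, COL1A1 6 to 107 and CD68 64 to 231. COL1A1 rose after treatment in both fractions (1.81 and 2.19). The part of these markers in the members' changes was not tested. Treated libraries held more mitochondrial reads (11.9 to 14.8%, against 4.44 to 7.80% in untreated ones) and more of the nuclear RNA MALAT1 (2.01 to 4.42%, against 0.303 to 0.386%). The effect of these shares on the scaling is given beside the results that it touched.

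B-type lamin mRNA fell most in CCNB1-negative cells. LMNB1, which encodes lamin B1 (chromosome 5 of GRCh38, 126776623 to 126837020), stood at 12.39 and 12.30 on the log2 scale in the untreated CCNB1-negative libraries and at 8.98 and 8.41 in the treated ones. In reads this was 4952 and 4000 against 321 and 200. LMNB1 mRNA was 12.6-fold lower after treatment (log2 difference -3.65, SE 0.19, adjusted p = 3.3e-09 in limma across all genes). In the CCNB1-positive libraries it stood at 12.83 and 12.71 untreated and at 11.83 and 11.45 treated, a 2.19-fold fall (log2 difference -1.13, SE 0.19, adjusted p = 1.5e-04 in limma). LMNB1 was thus the member with the largest fall in CCNB1-negative cells, and its level in treated CCNB1-positive cells lay closer to the untreated groups than to the treated CCNB1-negative one.

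LMNB2 encodes the second B-type lamin (chromosome 19, 2427638 to 2456959). Its log2 values were 12.04 and 11.94 in untreated and 9.47 and 9.01 in treated CCNB1-negative libraries, and 12.55 and 12.46 in untreated and 11.46 and 11.35 in treated CCNB1-positive libraries. The fall was 6.71-fold in CCNB1-negative cells (log2 difference -2.75, SE 0.16, adjusted p = 8.1e-09 in limma) and 2.14-fold in CCNB1-positive cells (-1.10, SE 0.16, adjusted p = 5.3e-05). LMNB2 followed the order of groups seen for LMNB1, with a smaller fall in CCNB1-negative cells.

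LMNA, the A-type lamin gene (chromosome 1, 156082573 to 156140089), fell too, with a narrower gap between the fractions. Its log2 values were 14.64 and 14.50 in untreated and 12.79 and 12.45 in treated CCNB1-negative libraries, and 14.77 and 14.74 in untreated and 13.59 and 13.40 in treated CCNB1-positive libraries. LMNA fell 3.88-fold in CCNB1-negative cells (log2 difference -1.95, SE 0.18, adjusted p = 3.5e-07 in limma) and 2.39-fold in CCNB1-positive cells (-1.25, SE 0.18, adjusted p = 4.0e-05). With quantile normalization the differences were smaller, at -1.31 and -0.59, and still passed. Values per gene do not separate the transcripts of lamin A from those of lamin C.

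**Figure D1:**
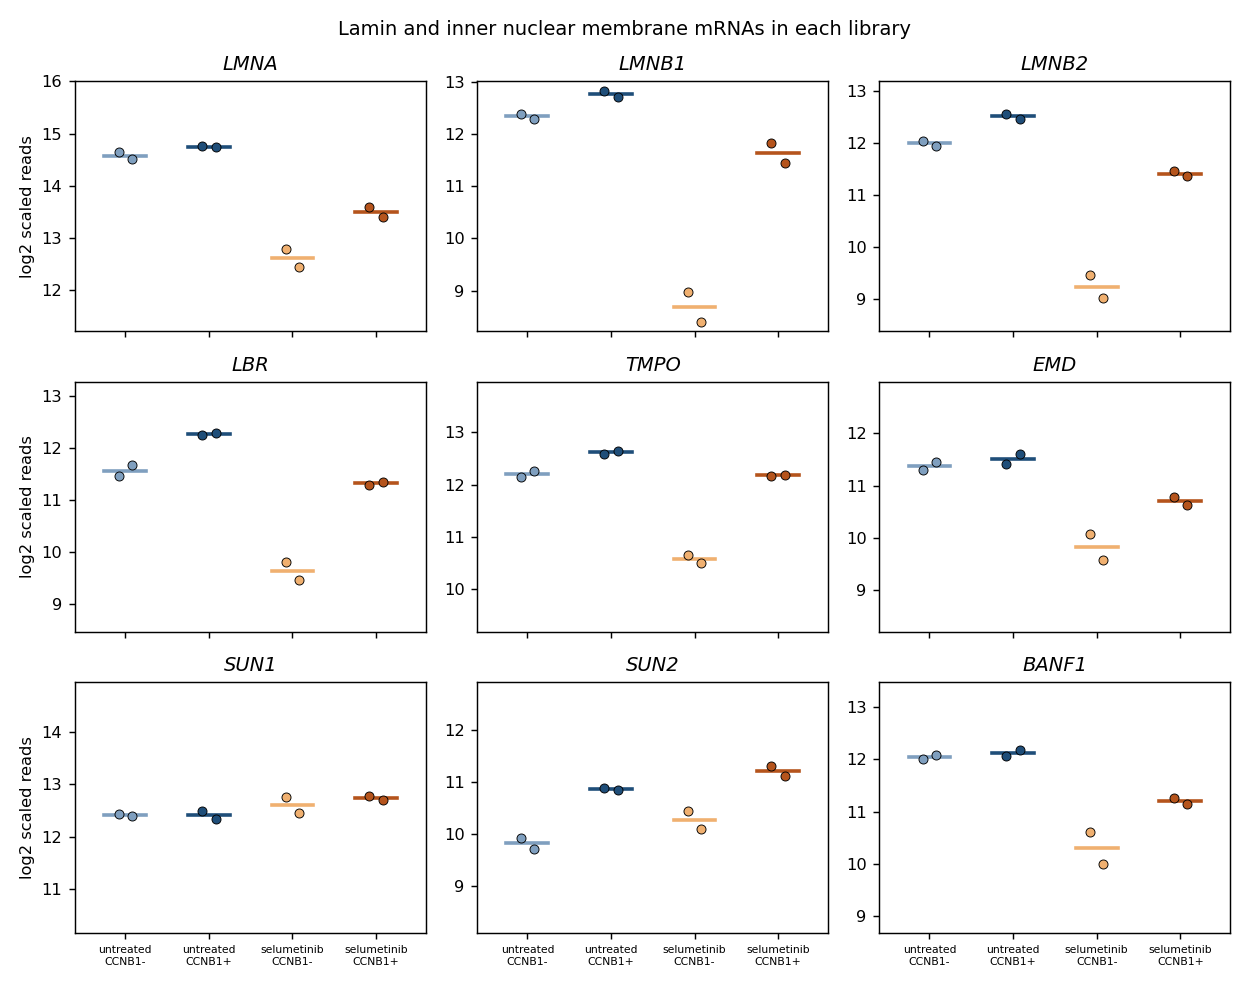
Log2 scaled reads of the 9 members (vertical axes, each spanning the same log2 range) in the 4 groups; points are the 2 libraries of a group and lines their means. The treated CCNB1-negative libraries are the lowest for LMNA, LMNB1, LMNB2, LBR, TMPO, EMD and BANF1, with LMNB1 at 8.98 and 8.41, whereas SUN1 stays between 12.34 and 12.78 and SUN2 is higher in the CCNB1-positive libraries.

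Of the membrane proteins with lamin-binding or chromatin-binding domains, LBR, TMPO and EMD also fell. LBR, the lamin B receptor, which anchors heterochromatin and has a sterol reductase domain (chromosome 1, 225401502 to 225428925), had log2 values of 11.46 and 11.67 in untreated and 9.82 and 9.47 in treated CCNB1-negative libraries. It stood at 12.26 and 12.28 in untreated and 11.30 and 11.36 in treated CCNB1-positive libraries. LBR fell 3.78-fold in CCNB1-negative cells (log2 difference -1.92, SE 0.15, adjusted p = 1.2e-07 in limma) and 1.92-fold in CCNB1-positive cells (-0.94, SE 0.15, adjusted p = 1.3e-04).

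TMPO encodes the lamina-associated polypeptide LAP2, whose isoforms bind lamins and chromatin (chromosome 12, 98515512 to 98550379). Its log2 values were 12.15 and 12.25 in untreated and 10.66 and 10.49 in treated CCNB1-negative libraries. TMPO fell 3.09-fold there (log2 difference -1.63, SE 0.14, adjusted p = 2.0e-07 in limma). In CCNB1-positive libraries the values were 12.58 and 12.65 untreated and 12.17 and 12.19 treated, and this fall was the smallest of those called (log2 difference -0.44, SE 0.14, adjusted p = 0.014). That call depended on the scaling and on each library compared: scaled to reads outside mitochondrial genes and MALAT1, the log2 difference was -0.19 (adjusted p = 0.24), with quantile normalization it was -0.06 (adjusted p = 0.69), and without any of the 4 CCNB1-positive libraries it lost the call, at adjusted p from 0.052 to 0.10. TMPO overlaps the antisense gene TMPO-AS1, and the strand handling of the counting is not given in the sources used here.

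EMD encodes emerin, a LEM domain protein that binds lamins and the chromatin protein BAF (chromosome X, 154379197 to 154381523). Its log2 values were 11.29 and 11.44 in untreated and 10.07 and 9.58 in treated CCNB1-negative libraries, and 11.42 and 11.60 in untreated and 10.78 and 10.63 in treated CCNB1-positive libraries. The falls were 2.91-fold (log2 difference -1.54, SE 0.17, adjusted p = 2.1e-06 in limma) and 1.75-fold (-0.80, SE 0.17, adjusted p = 0.0010). BANF1, which encodes BAF itself, the small DNA-binding protein that recruits LEM domain proteins to chromosomes as the envelope reforms (chromosome 11, 66002228 to 66004149), had values close in pattern. It stood at 12.00 and 12.08 in untreated and 10.60 and 9.99 in treated CCNB1-negative libraries, and at 12.07 and 12.17 in untreated and 11.26 and 11.15 in treated CCNB1-positive libraries. BANF1 fell 3.35-fold in CCNB1-negative cells (log2 difference -1.75, SE 0.18, adjusted p = 1.1e-06 in limma) and 1.89-fold in CCNB1-positive cells (-0.92, SE 0.18, adjusted p = 5.5e-04). The annotation lists 5 pseudogenes named for BANF1 and 2 named for TMPO, and whether reads were shared with them was not tested.

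SUN1 and SUN2 span the inner membrane and bind nesprins in the perinuclear space, which forms the LINC complex between lamina and cytoskeleton. SUN1 (chromosome 7, 816615 to 896435) had log2 values of 12.43 and 12.39 in untreated and 12.76 and 12.44 in treated CCNB1-negative libraries, and of 12.49 and 12.34 in untreated and 12.78 and 12.70 in treated CCNB1-positive libraries. Neither difference passed the test: it was 0.19 in CCNB1-negative cells (95% interval -0.14 to 0.53, adjusted p = 0.28 in limma) and 0.32 in CCNB1-positive cells (-0.02 to 0.65, adjusted p = 0.086). SUN1 was the member whose direction depended on the scaling, since with median-of-ratios scaling the differences were -0.06 and -0.02, whereas with quantile normalization they were 0.60 and 0.73 and passed. Scaled to reads outside mitochondrial genes and MALAT1, the differences were 0.51 and 0.57 and passed too (adjusted p = 0.0095 and 0.0058 in limma).

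SUN2 (chromosome 22, 38734725 to 38794143) had values of 9.93 and 9.71 in untreated and 10.44 and 10.10 in treated CCNB1-negative libraries on the log2 scale, a 1.37-fold rise (log2 difference 0.45, SE 0.16, adjusted p = 0.019 in limma). It stood at 10.88 and 10.84 in untreated and 11.30 and 11.11 in treated CCNB1-positive libraries (log2 difference 0.35, SE 0.16, adjusted p = 0.066). That difference passed when scaled to reads outside mitochondrial genes and MALAT1 (0.60, adjusted p = 0.0057 in limma) and with quantile normalization (0.49, adjusted p = 0.013). Over all settings run it ranged from 0.006 to 0.60. The rise in CCNB1-negative cells was not called with median-of-ratios scaling (0.20, adjusted p = 0.29), without untreated CCNB1-negative replicate 2 (0.35, adjusted p = 0.14) or without treated CCNB1-negative replicate 1 (0.28, adjusted p = 0.13). Both SUN genes overlap other genes in the annotation, among them GET4 for SUN1 and DNAL4 and, on the opposite strand, GTPBP1 for SUN2, so reads in the shared stretches are uncertain.

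In all, 7 of the 9 members were lower and 1 was higher after treatment in CCNB1-negative cells, where 35.8% of the 14219 genes tested were lower and 38.2% higher. In the CCNB1-positive fraction, 7 members were lower and 0 higher in limma, against 27.3% and 38.0% of all genes. There SUN2 was higher at an unadjusted p under 0.05. With limma-voom on the recovered reads, SUN1 and SUN2 were called higher and TMPO was not called (-0.33, adjusted p = 0.052). The same held with quantile normalization and with scaling to reads outside mitochondrial genes and MALAT1. In the main fit the same 7 members were lower in both fractions, as were 3704 of all genes tested. The median log2 difference of the members was -1.75 in the CCNB1-negative fraction and -0.92 in the positive one, beside 0.05 and 0.17 over all genes. Median-of-ratios scaling moved the median of all genes by -0.26 and -0.34, and scaling to reads outside mitochondrial genes and MALAT1 moved it by 0.32 and 0.25, relative to the authors' scaling. With median-of-ratios scaling 6103 genes were lower in the CCNB1-negative fraction and 5663 in the other, and with the scaling outside mitochondrial genes and MALAT1 3854 and 2614 were, against 5092 and 3888 with the authors' scaling. In CCNB1-negative cells the 7 falls passed the test under each of these scalings; in CCNB1-positive cells the 6 falls other than that of TMPO did. In these bulk samples, fewer cells carrying an mRNA and less of it per cell cannot be told apart.

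**Figure D2:**
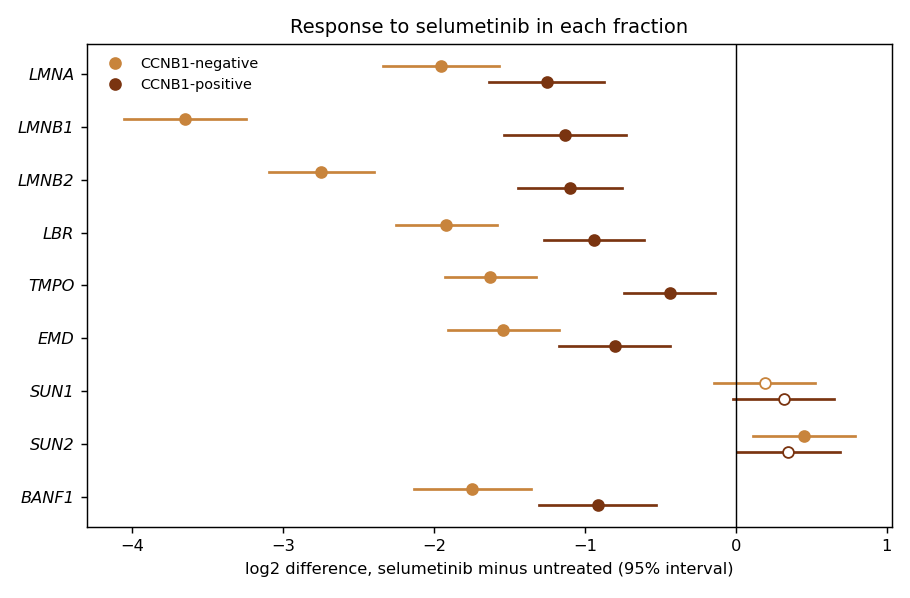
Log2 difference between selumetinib-treated and untreated cells (horizontal axis) for each member in CCNB1-negative (light) and CCNB1-positive (dark) cells, with 95% intervals from limma; filled points have an adjusted p under 0.05. LMNB1 is at -3.65 in the CCNB1-negative fraction but -1.13 in the other, and SUN1 and SUN2 lie right of 0 in both.

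Whether the response differed between the fractions was tested directly, by the interaction. LMNB1 fell less in CCNB1-positive than in CCNB1-negative cells by 2.52 on the log2 scale (SE 0.27, adjusted p = 3.0e-05 in limma), and LMNB2 by 1.65 (SE 0.23, adjusted p = 3.3e-04). For TMPO the difference was 1.19 (SE 0.20, adjusted p = 0.0017) and for LBR 0.98 (SE 0.22, adjusted p = 0.016). These 4 of 9 members compare with 4.99% of all genes in the same direction. LMNA (0.70, 95% interval 0.16 to 1.24, adjusted p = 0.14), EMD (0.74, 0.22 to 1.26, adjusted p = 0.10) and BANF1 (0.83, 0.28 to 1.38, adjusted p = 0.082) did not pass, nor did SUN1 (0.13, -0.35 to 0.60) or SUN2 (-0.10, -0.58 to 0.38). With same-numbered fractions of a treatment as a block, LMNA, EMD and BANF1 passed too (adjusted p = 0.0031, 0.0011 and 8.6e-04 in limma). With that block 2739 of the 14219 genes tested passed in the same direction. The 2 B-type lamins thus had larger interactions than LMNA, although the gap between genes was not itself tested. LBR lost the call without untreated CCNB1-negative replicate 2, either untreated CCNB1-positive library or treated CCNB1-positive replicate 2 (adjusted p from 0.052 to 0.085). With treated CCNB1-negative replicate 1 left out, the differences of LMNA, EMD and BANF1 were larger, at 0.87, 0.98 and 1.14. The cell cycle genes CCNB1, CDK1, TOP2A, MKI67 and PCNA also had interactions that passed, from 2.37 to 3.14, and their part in the members' pattern was not tested.

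The fraction differences give the same data from the other side, and they share libraries with the drug comparisons. Without drug, 2 members passed. SUN2 was 2.06-fold higher in CCNB1-positive cells (log2 difference 1.04, SE 0.16, adjusted p = 0.0015 in limma), and LBR 1.63-fold higher (0.71, SE 0.15, adjusted p = 0.022). These 2 of 9 members compare with 1.36% of all genes that were higher. The LBR call was lost with quantile normalization (adjusted p = 0.059) and without any of the 4 untreated libraries (adjusted p from 0.051 to 0.19). LMNB2 (0.52, adjusted p = 0.12), LMNB1 (0.43, adjusted p = 0.33) and TMPO (0.41, adjusted p = 0.17) did not pass. All 3 passed with same-numbered fractions as a block (adjusted p = 0.0020, 0.0049 and 0.0062 in limma), which gave 5 of 9. With that block 675 of the 14219 genes tested were higher. LMNA (0.18), EMD (0.14), BANF1 (0.08) and SUN1 (0.01) lay nearer to 0 and did not pass either.

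In treated cells 8 of 9 members were higher in the CCNB1-positive fraction, against 13.8% of all genes. LMNB1 was 7.72-fold higher (log2 difference 2.95, SE 0.19, adjusted p = 4.6e-08 in limma) and LMNB2 4.49-fold higher (2.17, SE 0.16, adjusted p = 2.5e-07). LBR (1.68) and TMPO (1.60) followed, at 3.21-fold and 3.04-fold. SUN2 (0.94), BANF1 (0.91), EMD (0.88) and LMNA (0.88) differed by between 1.84-fold and 1.91-fold, with adjusted p from 9.8e-04 to 0.0037. SUN1 did not pass (0.13, 95% interval -0.20 to 0.47, adjusted p = 0.56). LMNA lost its call without treated CCNB1-positive replicate 1 (0.79, adjusted p = 0.053). SUN2 passed in both treatments, with fraction differences of 0.94 with and 1.04 without drug, and the interval of that change ran from -0.58 to 0.38.

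**Figure D3:**
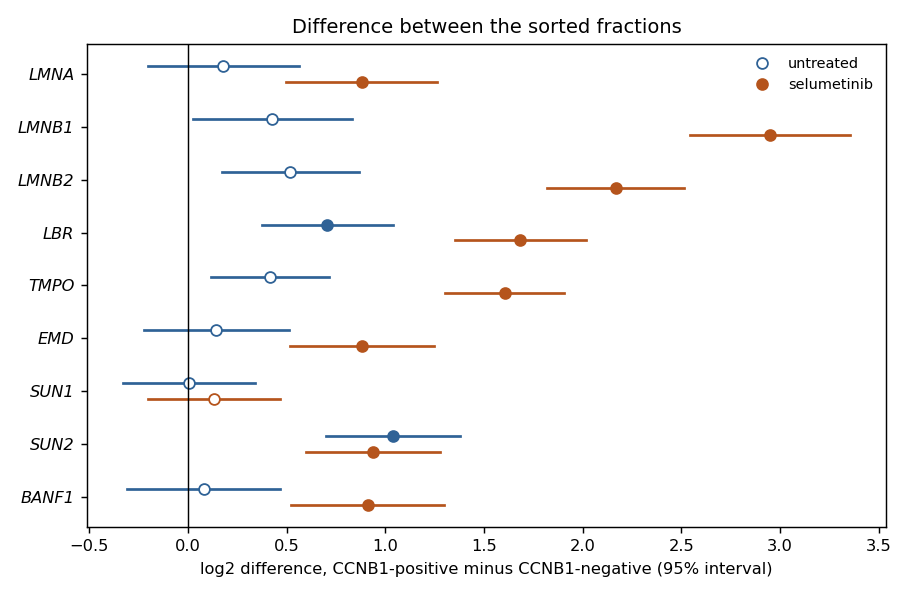
Log2 difference between CCNB1-positive and CCNB1-negative cells (horizontal axis) for each member in untreated (blue) and selumetinib-treated (orange) cells, with 95% intervals from limma; filled points have an adjusted p under 0.05. The untreated differences lie between 0.01 and 1.04, and LMNB1 reaches 2.95 in treated cells.

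Scaled to length, as RPKM (reads scaled to merged exon length and to the recovered reads on genes of the library), the members ran over a wide range of levels. The log2 values are scaled to total reads instead, so differences between groups in RPKM are not the same as the log2 differences given above. In untreated CCNB1-negative cells LMNA (125 ± 9.46, SD, n = 2) and BANF1 (118 ± 3.78) were highest, with ranges that overlapped. LMNB1 (59.8 ± 3.16) and EMD (55.4 ± 3.70) overlapped next, then LMNB2 (31.5 ± 1.84) stood alone, TMPO (23.2 ± 0.938) and LBR (22.2 ± 2.13) overlapped, and SUN1 (19.2 ± 0.451) and SUN2 (4.54 ± 0.512) were lowest. In untreated CCNB1-positive cells the order was LMNA, BANF1, LMNB1, EMD, LMNB2, LBR, TMPO, SUN1 and SUN2, from 141 ± 2.94 to 9.27 ± 0.226, with no overlap between neighbours.

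In treated CCNB1-negative cells the lower end of this order was taken by other genes. BANF1 (39.5 ± 11.2) and LMNA (35.7 ± 5.38) overlapped at the top, and SUN1 (24.3 ± 3.43) and EMD (21.2 ± 4.76) overlapped below them. TMPO (8.27 ± 0.544) came next, and SUN2 (6.86 ± 1.04), LBR (6.49 ± 1.04), LMNB1 (5.33 ± 1.40) and LMNB2 (5.22 ± 1.08) each overlapped the next gene in this order. In treated CCNB1-positive cells BANF1 (70.7 ± 3.21) and LMNA (63.6 ± 5.36) were again highest, LMNB1 (39.6 ± 7.12) overlapped EMD (37.6 ± 2.44), and SUN1, TMPO, LMNB2, LBR and SUN2 followed from 25.8 ± 0.818 down to 12.7 ± 1.07 without overlap. The order depends on the length used. LMNB1 ranked 3 by merged exons in treated CCNB1-positive cells and 6 by canonical transcript. With the length of the canonical transcript, LMNA rather than BANF1 was highest in every group, and SUN1 moved up in both untreated groups and in treated CCNB1-positive cells, where it then ranked behind LMNA and BANF1, as it did in treated CCNB1-negative cells by either length.

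Ratios between genes within a library do not depend on the scaling of the libraries. Of the summed lamin reads per kilobase, LMNA took 58.2 and 57.4% in untreated and 76.3 and 78.4% in treated CCNB1-negative libraries. LMNB1 took 27.4 and 27.9% untreated and 12.2 and 10.7% treated, and LMNB2 14.5 and 14.6% untreated and 11.5 and 10.9% treated. The treated CCNB1-negative libraries stood apart, with a lamin mRNA pool weighted to LMNA.

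In CCNB1-positive libraries LMNA took 52.3 and 53.7% untreated and 49.8 and 51.5% treated, LMNB1 30.7 and 29.6% untreated and 33.0 and 29.8% treated. The composition of the lamin pool therefore moved by at most a few percentage points with treatment there, although its sum fell from 274 and 259 to 135 and 116 RPKM. The sum in CCNB1-negative libraries went from 227 and 206 to 51.8 and 40.7. With 2 libraries against 2, an exact permutation test over libraries cannot reach 0.05, and none was run on the shares. The log2 ratio of LMNB2 to LMNB1 was -0.92 and -0.93 in untreated CCNB1-negative libraries and -0.08 and 0.04 in treated ones. The log2 ratio of SUN2 to SUN1 followed the fraction: it was -1.99 and -2.18 in untreated and -1.81 and -1.84 in treated CCNB1-negative libraries, and -1.11 and -0.995 in untreated and -0.97 and -1.08 in treated CCNB1-positive libraries.

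**Figure D4:**
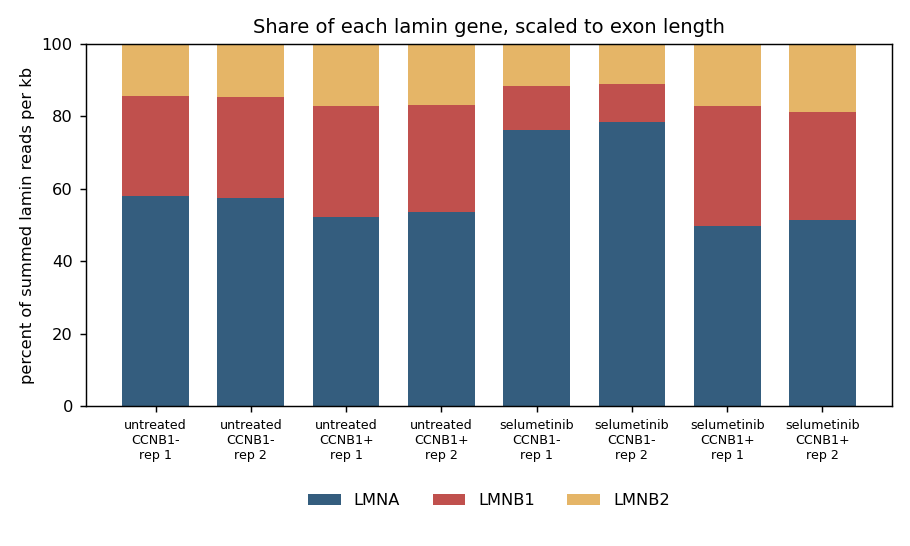
Share of LMNA, LMNB1 and LMNB2 in the summed lamin reads per kilobase of merged exon (vertical axis, percent) for each of the 8 libraries. By canonical transcript length the LMNA shares are larger. LMNA takes 76.3 and 78.4% in the treated CCNB1-negative libraries and between 49.8 and 58.2% in the other libraries.

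Across the 8 libraries, the closest pairs of members by Pearson r were EMD with BANF1 (0.997) and LMNB1 with LMNB2 (0.997), and among the 7 members that fell the lowest r was that of LMNA with TMPO (0.886). These are descriptions over 8 libraries that fall into 4 groups, and r takes no account of the size of a change: EMD and BANF1 lay 0.0937 apart (root-mean-square distance of centred log2 values) and LMNB1 and EMD 0.965. The genes with the smallest root-mean-square distance of centred log2 values (rms) over these libraries differed between members. For LMNB1 they were ZWINT, a kinetochore protein (rms 0.146), TUBA1B, an alpha tubulin (0.224), and UBE2T, a ubiquitin-conjugating enzyme (0.231). For LMNB2 they were TUBB, a beta tubulin (0.0847), HMGN2, a nucleosome-binding protein (0.148), and DTYMK, thymidylate kinase (0.157). For LBR they were BUB3 (0.134), a spindle checkpoint protein, RAD21 (0.137), a cohesin subunit, and MZT1 (0.146), a gamma-tubulin partner. TMPO was closest to GRK6 (0.128), TAF5 (0.141) and JPT1 (0.146).

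The members with smaller interactions had other neighbours. LMNA was closest to WBP11 (rms 0.0537), COL17A1 (0.0554), a hemidesmosome collagen, and TMEM185B (0.0671). EMD was closest to CD59 (0.0665), UBB (0.0849) and TM2D2 (0.0873), and BANF1 to PFN1, the actin-binding profilin (0.0772), CHRAC1 (0.0875) and PCBP1 (0.0882). SUN1 was closest to RASSF7 (0.0581), KLHL36 (0.0594) and PPWD1 (0.0595), which like SUN1 varied little, and SUN2 to HP1BP3 (0.165), HMG20B (0.181) and CNTROB (0.184).

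Other genes of the nuclear envelope were described from lists of known members. Of 15 genes of other envelope membrane proteins and the LINC complex, 14 were tested (SYNE3 was too low). In CCNB1-negative cells 4 were higher and 9 lower after treatment (all genes 38.2 and 35.8%), with a median log2 difference of -0.70 beside 0.05 over all genes, and in CCNB1-positive cells 3 were higher and 4 lower (all genes 38.0 and 27.3%, median -0.21, beside 0.17). When scaled to reads outside mitochondrial genes and MALAT1, 5 were higher and 2 lower in the CCNB1-positive fraction, and the median was 0.04. With that scaling 6676 of the 14219 genes tested were higher and 2614 lower, and their median was 0.42. The nesprin genes SYNE1 (2.03 in the CCNB1-negative fraction and 0.96 in the positive one, log2 difference), SYNE2 (1.08 and 1.07) and SYNE4 (2.54 and 2.75) rose in both fractions. The nesprins are the outer membrane partners of SUN1 and SUN2.

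The other genes of the list went in either direction. TMEM201, which encodes SAMP1, fell in both fractions (log2 difference -2.24 and -1.56), as did LEMD3, the LEM domain protein MAN1 (-0.83 and -0.45), TOR1AIP1, which encodes LAP1 (-1.10 and -0.67), and TMEM43 (-0.84 and -0.72). NEMP1 and NRM, which encodes nurim, fell in CCNB1-negative cells (-1.93 and -1.67), and their differences in CCNB1-positive cells were -0.25 and 0.39, which did not pass. LEMD2, another LEM domain protein, was at -0.31 and -0.17 and passed in neither fraction. TOR1B, a torsin ATPase, rose in CCNB1-negative cells (0.62), whereas the torsin gene TOR1A fell there (-0.77), as did ANKLE2 (-0.64) and TOR1AIP2 (-0.51). In CCNB1-positive cells TOR1B, TOR1A, ANKLE2 and TOR1AIP2 did not pass. NEMP1 and NRM had interactions that passed (NEMP1 1.68, adjusted p = 1.8e-04 in limma; NRM 2.07, adjusted p = 5.3e-04).

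Of 5 genes that process the lipid-modified tail of prelamin A and B-type lamins, 2 were lower and 0 higher in each fraction in limma, beside 35.8 and 27.3% lower over all genes (0 were higher at an unadjusted p under 0.05, and 0 with limma-voom). ICMT, the methyltransferase that acts after farnesylation, had log2 differences of -2.51 and -1.31 in CCNB1-negative and CCNB1-positive cells, and ZMPSTE24, the protease that completes lamin A maturation, of -0.82 and -0.96. For the farnesyltransferase subunits FNTA and FNTB the differences lay between -0.13 and 0.01 and did not pass, nor did those of the protease RCE1 (-0.34 and -0.01). Of 11 genes of BAF regulation and envelope sealing, 2 were higher and 6 lower in CCNB1-negative cells, and 1 higher and 2 lower in CCNB1-positive cells, where 38.2 and 35.8%, and 38.0 and 27.3%, of all genes were. Over the settings run, the number lower ranged from 2 to 7 and from 2 to 6. VRK1, the kinase that releases BAF from DNA, fell in both (-2.53 and -1.01) and had an interaction that passed (1.53, adjusted p = 2.5e-04 in limma), whereas VRK2 was at -0.07 and 0.06 and did not pass. VPS4A, an ATPase of the ESCRT machinery that seals the envelope, fell in both (-1.31 and -1.11), and CHMP3, a subunit of that machinery, rose in both (0.54 and 0.59).

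The nuclear pore list of 29 genes, all tested, had 24 lower and 0 higher in CCNB1-negative cells in limma and 23 lower and 0 higher in CCNB1-positive cells. Of all genes, 35.8 and 27.3% were lower and 38.2 and 38.0% higher. The remaining pore genes were also at negative log2 differences, so 0 were higher at an unadjusted p under 0.05, and 0 were called higher with limma-voom or another setting run. The list's median log2 difference was -1.14 in the CCNB1-negative fraction and -0.71 in the positive one, beside 0.05 and 0.17 over all genes. The largest falls in CCNB1-negative cells were those of the transmembrane nucleoporin NDC1 (-2.37) and the scaffold genes NUP205 (-2.15) and NUP37 (-2.14), and the smallest differences those of NUP160 (-0.14), NUP214 (-0.16) and AAAS (-0.32), which did not pass. In treated cells 15 pore genes were higher in the CCNB1-positive fraction (13.8% of all genes, and 8 to 19 pore genes over the settings run), led by NDC1 (1.88), and 0 passed in untreated cells in limma (3 were higher and 1 lower at an unadjusted p under 0.05, and 0 passed with limma-voom). The interaction passed for 6 pore genes (4.99% of all genes, and 2 to 15 pore genes over the settings run), with NDC1 (1.37), NUP50 (1.10) and NUP37 (1.08) the largest.

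The 250 bases before the start of each member's canonical transcript (GENCODE release 44, hg38) were searched on both strands for short motifs known from cell cycle and growth factor regulated genes. Of these windows, 2 contain no annotated exon, and they are shown because LMNB2 was among the members that fell most and SUN1 passed in neither drug comparison. The LMNB2 window is chr19:2456960-2457209 on the minus strand and the SUN1 window chr7:832226-832475 on the plus strand, inside the span of longer SUN1 transcripts. Capitals mark the motif matches, and the transcript starts right after the last base.
LMNB2: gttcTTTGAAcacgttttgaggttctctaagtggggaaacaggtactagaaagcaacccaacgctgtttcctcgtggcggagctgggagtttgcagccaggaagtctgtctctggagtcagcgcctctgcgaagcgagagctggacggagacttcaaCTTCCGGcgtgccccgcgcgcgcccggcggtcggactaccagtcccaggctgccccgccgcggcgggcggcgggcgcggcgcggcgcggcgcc
SUN1: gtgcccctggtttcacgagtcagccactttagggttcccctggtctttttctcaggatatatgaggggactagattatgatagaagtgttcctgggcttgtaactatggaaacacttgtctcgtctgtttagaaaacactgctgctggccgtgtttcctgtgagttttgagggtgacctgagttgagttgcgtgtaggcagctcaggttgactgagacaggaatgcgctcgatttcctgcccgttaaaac
The LMNB2 window holds a CHR motif, TTTGAA, 246 bases before the start and, on the other strand, the ETS core CCGGAAG 93 bases before it. The SUN1 window holds none of the motifs searched.

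Over all 9 members, CCAAT was present in 6 windows (LMNA, LMNB1, LBR, TMPO, EMD and SUN2), and in 34.3% of 19970 such windows of protein-coding genes. CHR (TTTGAA or TTCGAA) was present in 3 (LMNB2, LBR and SUN2; 11.3% of all), and the ETS core in 2 (LMNB2 and BANF1; 11.9% of all). An E2F motif (TTTCCCGC, TTTGGCGC, TTTCGCGC or TTTGCCGC) was in 0 of 9 and in 3.77% of all windows. In the RefSeq promoter table, which holds 8 of the 9 members, the window of LMNA begins 32138 bases from the canonical start and contains an E2F match, and those of LMNB1 and LBR lie 513 and 783 bases away and contain no match. The part of these motifs in the members' changes was not tested, and no match says only that these letters are not in the window.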

How the data were processed

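HT29 libraries were analysed from 1 table of gene values, and COLO205 is not analysed here. Per the methods and the submitters' processing notes, the authors used Trim Galore 0.5.0 for trimming and HISAT2 2.1.0 for alignment (GRCh38), and deposited log2 values from SeqMonk that are scaled to total reads, with genes without a read at the log2 of 0.9 reads. The annotation release, strand handling and SeqMonk counting options are not given in the sources used here, and labels and methods differ in the growth medium. Of the value columns, 8 were used and 0 set aside.

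The 14219 genes whose mean reached 1 RPM were fitted with limma 3.58.1 (trend, 1 coefficient per group) in R 4.3.3 on the deposited log2 values, with Benjamini-Hochberg adjustment over all of them and a threshold of 0.05. Whole reads were recovered from the values in every library. The fit was also run on simulated reads, with known changes in a small part of the genes and with independent libraries. That run cannot tell how the fit does under the widespread changes and correlated fractions of these data. The authors' own test was DESeq2, and its result is not used here. Lengths are merged exons of GENCODE release 44. Promoter windows before canonical starts replaced the planned RefSeq windows after those for LMNA, LMNB1 and LBR were seen to lie elsewhere. Python 3.11.15, pandas 2.3.3, numpy 2.4.6, scipy 1.17.1 and matplotlib 3.10.9 did the remaining steps.

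The members and gene lists were chosen with earlier results of these data known. Named genes are all members, genes of the lists of 15 or fewer, the 3 largest and 3 smallest differences of the pore list, and the 3 genes nearest to each member. Alternatives were other scalings, filters, thresholds, pseudocounts, models and blocks, and leaving out each library. Scaling to reads outside mitochondrial genes and MALAT1 was added after seeing the data.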

Additional observations from a re-analysis of the deposited data

Results flagged for a closer look

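In 4 members the response to selumetinib differed between the sorted fractions in a test of the difference itself. The response in CCNB1-positive cells minus that in CCNB1-negative cells was 2.52 on the log2 scale for LMNB1, 1.65 for LMNB2, 1.19 for TMPO and 0.98 for LBR (adjusted p = 3.0e-05, 3.3e-04, 0.0017 and 0.016 in limma). The differences of LMNB1, LMNB2 and TMPO passed in each alternative run, while that of LBR lost the call at an adjusted p threshold of 0.01, with the 2-fold requirement and when 1 of 4 libraries was left out. Every value had the same sign in each alternative.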

How the results depend on the processing

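No member that was called changed direction in any alternative. With at least a 2-fold difference required, 3 of the 7 calls in CCNB1-positive cells were left. Of the 2 calls in the untreated fraction comparison 1 was left, and of the 8 in the treated one 4. How many calls over all genes met this requirement was not counted, so no share can be set beside these counts. In the untreated fraction comparison, 1 member passed with quantile normalization and 1 at an adjusted p threshold of 0.01, and leaving out 1 library at a time gave 1 to 3. Over all alternatives the interaction ranged from 0.80 to 1.16 for LBR, 0.53 to 0.87 for LMNA, 0.49 to 0.98 for EMD and 0.52 to 1.14 for BANF1. With same-numbered fractions of a treatment taken as a block (fraction pair block), 5 members passed in the untreated fraction comparison and 7 in the interaction. For these changes the cause was not tested. Of the values of single members, 810 kept their side of the threshold, 35 lost a call and 28 gained one over all alternatives.

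The labels give the same 2 replicate numbers in each group without saying what they mark. Deviations of same-numbered libraries correlated at 0.35 between the untreated fractions and 0.43 between the treated ones, and between -0.09 and 0.08 across treatments. Whether same-numbered fractions of a treatment came from a shared culture is not given. The main fit took no pairing, and the fraction pair block called more genes in the fraction and interaction comparisons. With the replicate number as a block, 8, 9, 2, 8 and 4 members passed in the CCNB1-negative, CCNB1-positive, untreated fraction, treated fraction and interaction comparisons, where 8, 7, 2, 8 and 4 did without it, since SUN1 and SUN2 passed as higher in CCNB1-positive cells (adjusted p = 0.048 and 0.031 in limma). Of the 14219 genes tested, 10890, 9764, 500, 3741 and 883 passed with this block, against 10530, 9288, 408, 3077 and 758 without it.

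Over all genes, 408 passed in the untreated fraction comparison, against 254 with quantile normalization, 1923 with the fraction pair block and as few as 224 with 1 library left out. In the treated fraction comparison 3077 passed, against 6671 with that block and 1156 without treated CCNB1-negative replicate 2. The interaction passed for 758, against 3850 with the block, 1806 without treated CCNB1-negative replicate 1 and 489 without untreated CCNB1-negative replicate 2. Of the genes called for the drug in the CCNB1-positive fraction 58.1% rose, against 47.1% with quantile normalization, 40.9% with median-of-ratios scaling and 71.9% when scaled to reads outside mitochondrial genes and MALAT1. In treated cells 63.6% were higher in the CCNB1-positive fraction, against 46.5% with quantile normalization. The fewest reads of a member were 200, for LMNB1 in a treated CCNB1-negative library. Each group has 2 libraries, which limits what the fits can tell from the spread.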

Other observations

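SYNE3, the nesprin gene left out by the filter on low values, had at most 2 reads in the untreated libraries and 4 and 5 in the treated CCNB1-negative ones.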
